A study of Mus musculus with 12 samples.

Results

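The response of unstimulated (naive) mouse macrophages to retinoic acid (RA) was described gene by gene, by setting 3 libraries from RA-treated naive cells against 3 from naive cells given only the solvent. These 6 libraries are part of a series of 12. Of the 13553 genes in the deposited table, 12116 had a level of at least 0 log2 CPM (CPM, counts scaled to a common library size, on the log2 scale) in at least 3 of the 12 libraries and were tested. The macrophages were grown from the bone marrow of male C57BL/6 mice of wild-type genotype with M-CSF at 10 ng/mL, which drives marrow progenitors to become macrophages. In the naive RA group the cells spent 24 h in medium without IL4 (the sample labels name PBS as this pre-treatment), were washed, and then received 1 µM all-trans RA for 6 h. The naive vehicle group was handled in the same way and received DMSO in place of RA for 6 h. The IL4 RA and IL4 vehicle groups, 3 libraries each, had 20 ng/mL IL4 during the 24 h. They serve here for a test of whether the RA effect of a gene differs between the 2 states. They also enter the filter and the estimate of the spread that is shared by all 12 libraries and behind each p-value. Each group holds the replicate numbers 2, 3 and 4. Nothing in the labels says that replicates were separate mice or cultures. The spread that enters each p-value is therefore that among these libraries alone and may be technical.

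RA is the active metabolite of vitamin A. It enters the nucleus and binds retinoic acid receptors, which sit on DNA as dimers with retinoid X receptors, and ligand binding exchanges corepressors for coactivators, so that target genes are transcribed. Among the classic targets are the receptor gene Rarb itself and the genes of enzymes that clear retinoids, which together form a feedback loop. In the gut and the peritoneal cavity, RA is known to shape resident macrophages and the migration of lymphocytes.

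The 11 macrophage genes used to check the cell type, among them the growth factor receptor gene Csf1r and the lysozyme gene Lyz2, were all present, and the lowest value of any of them in a naive library was 6.11 log2 CPM (Mertk). Of 12 B and plasma cell genes, 0 were in the table. The summed level of the 3 megakaryocyte and erythroid genes in the table was 45.5 to 64.3 CPM in RA libraries and 26.2 to 33.1 CPM in vehicle libraries. That sum rests on the chemokine genes Pf4 and Ppbp, described below. T cell and NK cell genes summed to 231 to 255 CPM with RA and 277 to 307 CPM with vehicle, most of it from the interleukin receptor gene Il7r. The sums of neutrophil, mast cell, eosinophil, dendritic cell, osteoclast, stromal and monocyte genes overlapped between RA and vehicle, 0 of 5 mitochondrial and nuclear transcripts that track RNA quality were called, and the part of other cells in the results was not tested. In bulk samples such as these, fewer cells of a type and less RNA per cell cannot be told apart.

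RA changed the RNA of 759 of the 12116 genes, which is 6.26% of those tested: 392 (3.24%) rose and 367 (3.03%) fell (limma, Benjamini-Hochberg adjusted p under 0.05, the threshold for all calls below). These shares are the background for the list counts below. The lists and their members were chosen with earlier results of these data known, so the counts describe the lists and test nothing. The increases were larger. A change of at least 1.5-fold was reached by 126 of the genes that rose and by 22 of those that fell, and a log2 change of at least 1 by 49 and by 1. Most changes were small, and 402 of the 759 stayed below 1.25-fold. The genes that rose had a median level of 37.9 CPM in vehicle libraries and those that fell 69.6 CPM, and 57 of the first and 10 of the second had a vehicle mean under 2 log2 CPM. The gene beyond a log2 change of -1 was Smim5, which encodes a small membrane protein. Smim5 read -3.50, -2.23 and -2.58 log2 CPM with RA and -0.51, -1.42 and -2.23 with vehicle, close to the lowest value of the table (-3.67). Smim5 was under 0 log2 CPM in every naive library and passed the filter through the IL4 libraries. The IL4 groups also enter the spread behind its p-value. Their SD was 0.07 with vehicle and 0.23 with RA, against 0.86 and 0.66 in the naive groups. The difference of Smim5 was -1.39 (SE 0.38, adjusted p = 0.0488). It was not called without vehicle library 2 or 3 or RA library 2 or 4 (adjusted p up to 0.161). The call was also lost under 4 other settings, among them the fit of the naive libraries alone. The RA and vehicle libraries did not overlap for 3390 genes, 28% of all tested, so a lack of overlap alone is a weak criterion here. The number of calls depended on the libraries, falling to 416 without vehicle library 4, 452 without RA library 4, 499 without RA library 3 and 505 without vehicle library 2.

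**Figure D1:**
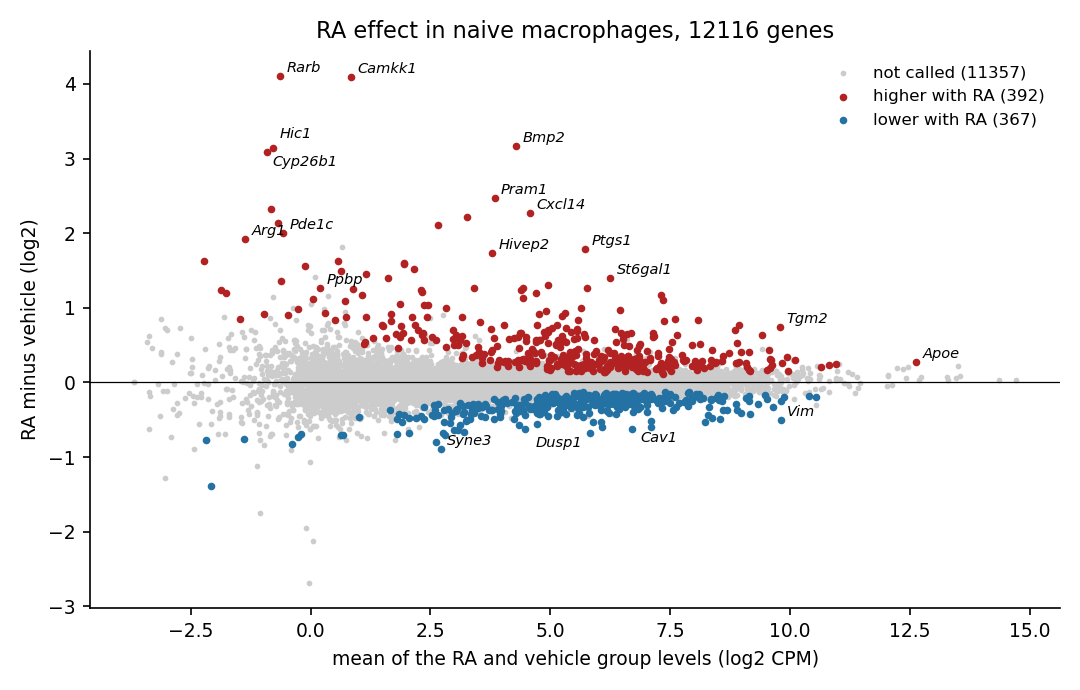
RA minus vehicle (log2, y axis) against the mean of the RA and vehicle group levels (log2 CPM, x axis) for the 12116 tested genes, 1 point per gene, with genes that rose in red (392), genes that fell in blue (367) and the rest in grey. Increases above a log2 difference of 2 come from genes at low and middle levels, such as Rarb (4.11), Camkk1 (4.10) and Bmp2 (3.17), while all but 1 of the decreases are smaller than 1.

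The retinoid pathway was examined first. Rarb, which encodes retinoic acid receptor beta (Entrez 218772, chromosome 14, 16430839 to 17082331 of GRCm38, minus strand), read 1.61, 1.50 and 1.15 log2 CPM in RA libraries 2, 3 and 4, against -2.89, -2.22 and -2.95 in vehicle libraries 2, 3 and 4. The 3 RA libraries all lay far above the 3 vehicle libraries, which were close to the lowest value of the table. Rarb rose by 4.11 on the log2 scale (SE 0.23, adjusted p = 1.3e-07, n = 3 per group), about 17.2-fold, a size that is inexact because the vehicle level is near the floor. Of its exonic bases, 52.9% are shared with Top2b, a topoisomerase gene on the opposite strand. Top2b stood at 6.11 ± 0.10 log2 CPM with RA and 6.14 ± 0.04 with vehicle (SD, n = 3 each; difference -0.03, adjusted p = 0.815). Whether the counting used strand is not given in the sources used here, so reads of the 2 genes cannot be told apart with certainty.

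The other receptors differed little. Rara was 3.93 ± 0.09 log2 CPM with RA and 3.95 ± 0.03 with vehicle (difference -0.02, SE 0.07, adjusted p = 0.888). Rarg was 4.52 ± 0.07 with RA and 4.44 ± 0.09 with vehicle (difference 0.08, SE 0.06, adjusted p = 0.494). For the dimer partner Rxra the difference was -0.02 (SE 0.05, adjusted p = 0.868), and for Rxrb it was 0.07 (adjusted p = 0.431). The corepressor gene Ncor1 (-0.12, adjusted p = 0.268) was not called. Nrip1, whose product is a ligand-dependent corepressor of nuclear receptors, was the remaining call, with 4.62, 4.65 and 4.61 log2 CPM in RA libraries against 4.02, 3.91 and 4.10 in vehicle libraries. It rose by 0.62 (SE 0.08, adjusted p = 2.2e-04). Of the 13 tested receptor and coregulator genes, 2 rose and 0 fell.

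The promoter of Rarb is shown because it holds the kind of element through which RA receptors are known to act, a direct repeat with a spacer of 5 bases. Windows from 250 bases before to 50 bases after the transcription start (RefSeq, GRCm38.p6) were searched on both strands for any of the units AGGTCA and AGTTCA and GGGTCA and GGTTCA, followed, after 1, 2 or 5 bases, by another of these units on the same strand. The Rarb window is chr14:16575427-16575726 (minus strand, printed 5′ to 3′ in the direction of transcription), and capitals mark the repeat, which lies 53 to 37 bases upstream of the start on the same strand as the gene. The window of Ppbp is chr5:90768268-90768567 (plus strand), and its capitals mark the same kind of repeat on the opposite strand, 246 to 230 bases upstream, where it reads AGGTCAgacctAGGTCA.
Rarb promoter: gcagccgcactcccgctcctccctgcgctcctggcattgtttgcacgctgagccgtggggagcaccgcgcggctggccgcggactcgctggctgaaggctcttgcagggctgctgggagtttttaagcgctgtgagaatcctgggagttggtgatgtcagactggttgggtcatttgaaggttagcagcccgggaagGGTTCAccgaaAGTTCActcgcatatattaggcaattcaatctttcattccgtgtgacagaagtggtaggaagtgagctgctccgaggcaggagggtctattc
Ppbp promoter: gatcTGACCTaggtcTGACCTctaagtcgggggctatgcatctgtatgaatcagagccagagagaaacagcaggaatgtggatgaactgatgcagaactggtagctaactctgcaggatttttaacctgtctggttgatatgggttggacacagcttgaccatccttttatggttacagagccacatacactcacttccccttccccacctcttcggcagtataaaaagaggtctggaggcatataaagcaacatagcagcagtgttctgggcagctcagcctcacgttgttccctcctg

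A spacer of 5 occurred in 4 of the 12287 windows (0.0326%), which belong to 9643 of the tested genes. Among the 416 windows of all genes that rose there were 2 such windows (0.481%), those of Rarb and Ppbp, which also count among the 52 windows of genes that rose by at least 1 (3.85%). That share rests on these 2 windows alone. The call of Ppbp was lost without vehicle library 4 or RA library 2 or 3 (adjusted p up to 0.078). Its difference was as low as 0.89 in the fits without 1 naive library, which is under 1. Among the 411 windows of genes that fell there were 0. The other 2 windows belong to Blvrb, a biliverdin reductase gene (repeat AGTTCAaagccAGTTCA; difference 0.10, adjusted p = 0.465), and Tnfsf13b, which encodes a B cell survival factor (repeat AGTTCAgatggAGTTCA; difference -0.15, adjusted p = 0.645). Neither gene was called. For spacers of 1, 2 or 5 together, 45 of the 12287 windows (0.366%) held a repeat, against the same 2 of 416 (0.481%) for genes that rose, which had 0 with a spacer of 1 or 2. Of the 14 largest increases described below, 12 had a window, and 0 of these held a repeat. A match is a description of letters, and elements outside these windows were not looked at. The Rarb and Ppbp promoters were chosen after their values were seen.

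Enzymes that clear or reduce retinoids rose along with the receptor. Cyp26b1, an enzyme that degrades RA, read 0.93, 0.58 and 0.36 log2 CPM with RA and -2.79, -2.08 and -2.52 with vehicle. It rose by 3.09 (SE 0.32, adjusted p = 4.2e-05). Its vehicle libraries in both states were under 0 log2 CPM, so it passed the filter through its RA libraries. As for Rarb, the size of the rise is inexact because the vehicle level is near the floor. Dhrs3, which reduces retinaldehyde back to retinol, read 7.92, 7.99 and 7.96 with RA and 7.33, 7.38 and 7.26 with vehicle, a far more abundant transcript with a small spread, and rose by 0.63 (SE 0.04, adjusted p = 5.1e-07). In both genes every RA library exceeded every vehicle library. Dhrs9, a retinol and steroid dehydrogenase gene, fell by 0.36 (adjusted p = 0.0107), a call lost without vehicle library 2 or RA library 3 (adjusted p up to 0.0517) and when the naive libraries were fitted alone. Rdh10, which makes retinaldehyde, differed by -0.25 and missed the threshold (adjusted p = 0.0644). In the list of 17 tested genes of retinoid synthesis, clearance and transport, 2 rose and 1 fell. Cyp26a1 was not analysed here.

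Of 41 listed genes known as RA-inducible in other cells, 20 were tested. Of these 20, 8 rose and 0 fell, where 3.24% of all tested genes rose. The list was chosen with earlier results of these data known, so this count is no independent support. The same 8 were called in each of the 6 fits that left out 1 naive library. The median difference of the 20 was 0.39, against -0.00 over all tested genes. Beside Rarb, Cyp26b1, Dhrs3 and Nrip1, which were already counted in the retinoid lists above, the 8 were Hic1, Cd38, Tgm2 and Rai14. Hic1, a transcriptional repressor gene, read 0.51, 1.05 and 0.81 log2 CPM with RA and -2.82, -2.06 and -2.17 with vehicle (3.14, SE 0.22, adjusted p = 1.2e-06). The vehicle level of Hic1 is near the floor, so the size of its rise is inexact. Cd38, an NAD-consuming ectoenzyme, read 2.17, 2.53 and 2.47 with RA and 0.83, 1.59 and 1.59 with vehicle (1.05, SE 0.20, adjusted p = 0.00544). Tgm2, a protein crosslinking transglutaminase, read 10.09, 10.15 and 10.24 with RA and 9.37, 9.49 and 9.38 with vehicle (0.74, SE 0.06, adjusted p = 9.7e-06). Vehicle library 2 stood lowest for Cd38, and the groups overlapped for none of the 3 genes. Homeobox genes that RA induces in embryos were not called: Hoxb4 differed by 0.42 (adjusted p = 0.0583) and Meis1 by 0.37 (adjusted p = 0.0971).

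Beyond the known targets, the largest increases among genes with at least 2 log2 CPM in the higher group included the following. Camkk1, a kinase that activates other calmodulin-dependent kinases, read 2.92, 3.02 and 2.75 log2 CPM with RA and -1.50, -1.06 and -1.03 with vehicle. It rose by 4.10 (SE 0.18, adjusted p = 1.1e-08). Its vehicle libraries in both states were under 0 log2 CPM, so it passed the filter through its RA libraries. Its relative Camkk2 moved the other way, from a higher level: it read 6.11, 6.32 and 6.33 with RA and 6.55, 6.68 and 6.57 with vehicle, and fell by 0.35 (SE 0.06, adjusted p = 0.00155). Of the 35 tested genes of calcium and calmodulin signalling, 2 rose and 2 fell. Itpr3, a calcium release channel gene, was higher by 0.23 and Camk1d, a calmodulin-dependent kinase gene, lower by 0.28, and both calls were lost when single libraries were left out (adjusted p up to 0.11 for Itpr3, without any 1 of the 6, and up to 0.118 for Camk1d, without vehicle library 2 or 4 or RA library 3 or 4) and with no intensity trend.

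Pram1, an adaptor gene of myeloid cells first described as a target of the PML-RARA fusion protein, read 5.09, 5.15 and 4.99 log2 CPM with RA and 2.68, 2.58 and 2.56 with vehicle (2.47, SE 0.09, adjusted p = 1.3e-09). It was the only call among 14 tested genes of the granulocyte and C/EBP programme, a share of 7.14% that is close to the 6.26% of all tested genes. Cebpe, the granulocyte transcription factor gene of that list, differed by 0.21 (adjusted p = 0.722), at only 0.67 CPM with RA and 0.60 CPM with vehicle. The annotation places 94.6% of the exonic bases of Pram1 inside a read-through gene model on the same strand, Gm20507. Hivep2, a zinc finger transcription factor gene, read 4.64, 4.62 and 4.72 with RA and 2.98, 2.90 and 2.91 with vehicle (1.73, SE 0.08, adjusted p = 2.1e-08). The spread within groups was small for both genes relative to the gap between them.

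St6gal1, a sialyltransferase, read 6.95, 6.95 and 6.96 log2 CPM with RA and 5.65, 5.50 and 5.53 with vehicle (1.39, SE 0.08, adjusted p = 1.1e-07). Chst15, a chondroitin sulfotransferase, read 2.39, 2.86 and 2.95 with RA and 0.87, 1.55 and 1.02 with vehicle (1.59, SE 0.17, adjusted p = 7.2e-05). Another sialyltransferase gene, St8sia6, named after its values were seen, rose by 1.09 (SE 0.11, adjusted p = 3.1e-05). Baiap2, an adaptor that links membranes to actin, read 6.30, 6.47 and 6.42 with RA and 5.12, 5.12 and 5.14 with vehicle (1.27, SE 0.06, adjusted p = 1.5e-08), and Tagap, a GTPase-activating protein gene, rose by 1.31 (SE 0.10, adjusted p = 3.2e-06). AA467197 rose by 1.52 (SE 0.12, adjusted p = 3.2e-06).

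**Figure D2:**
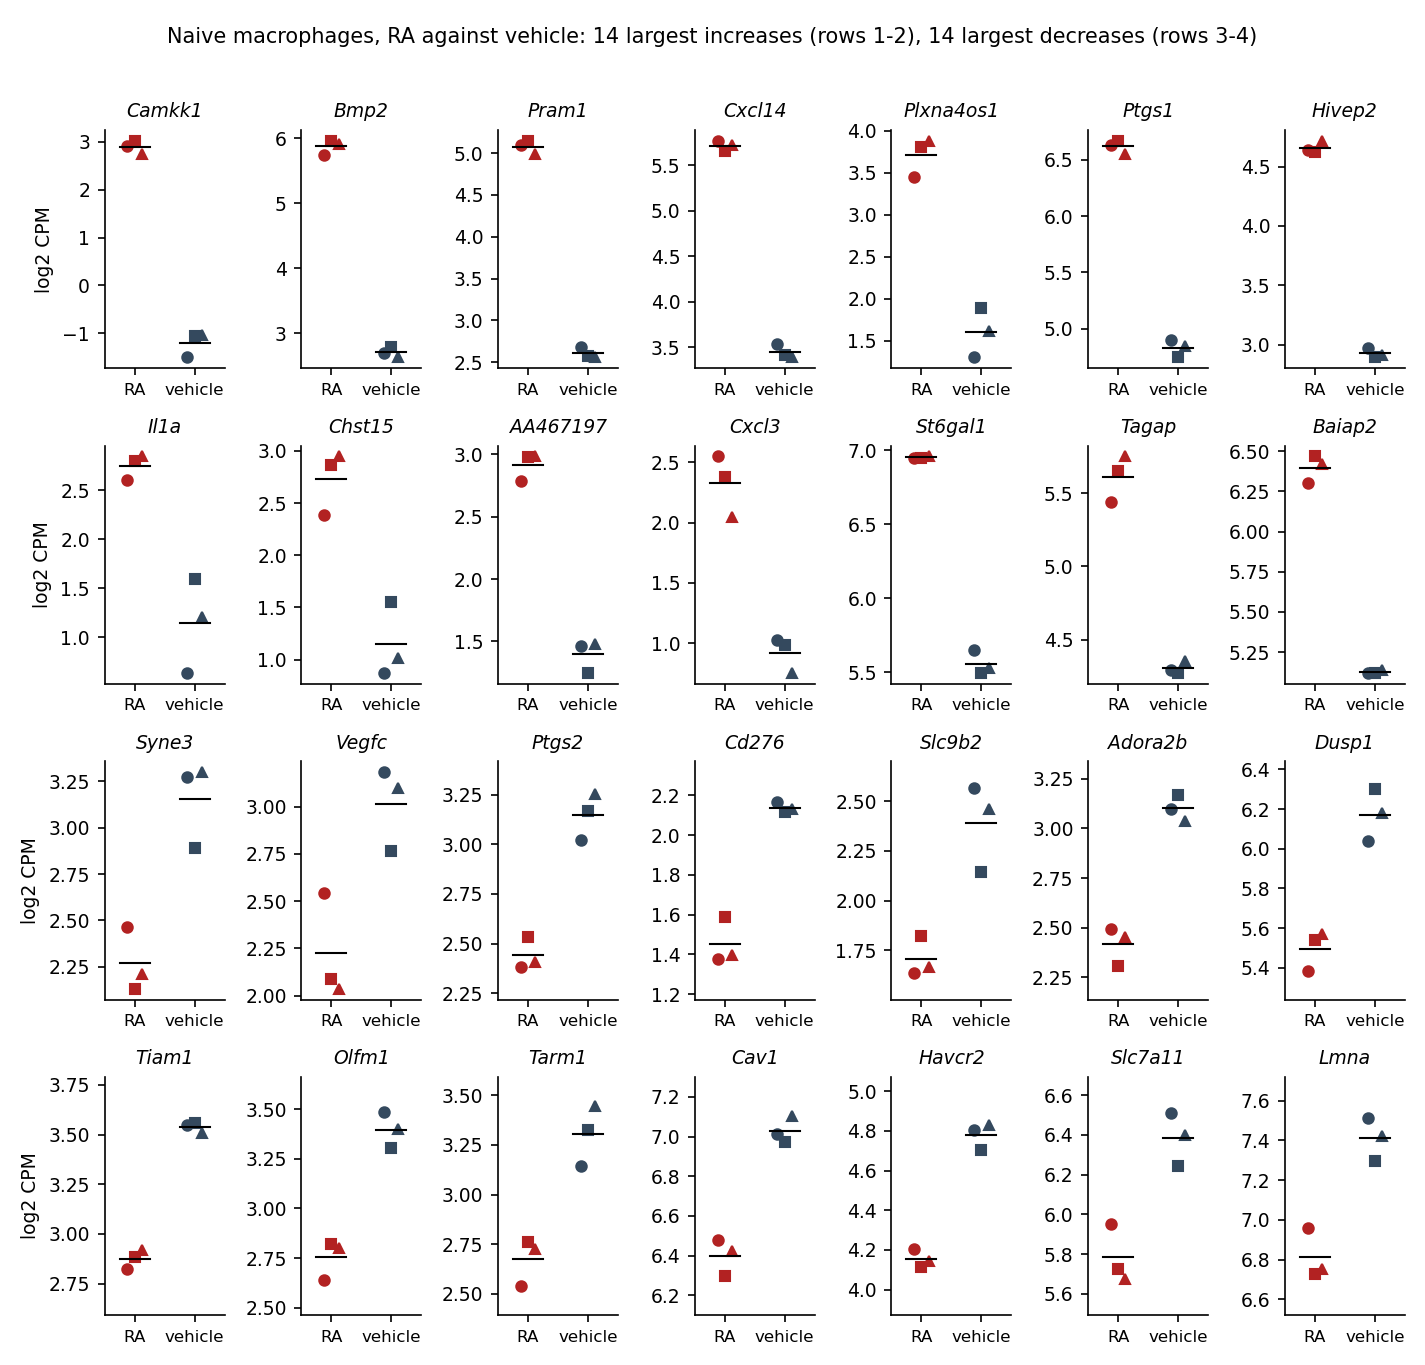
Level (log2 CPM, y axis, scaled per gene) in the 3 RA libraries (red, left) and the 3 vehicle libraries (dark blue, right) for the 14 largest increases (upper 2 rows of panels) and the 14 largest decreases (lower 2) among called genes with at least 2 log2 CPM in the higher group and no overlap. Circles, squares and triangles are replicates 2, 3 and 4 and lines are group means; the increases run from 4.10 (Camkk1) to 1.27 (Baiap2) and the decreases from -0.89 (Syne3) to -0.60 (Lmna).

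Of 24 tested chemokine genes, 7 rose and 0 fell, where 3.24% of all tested genes rose and 3.03% fell; 23 of the 24 differences were positive, and the median was 0.27. Cxcl14, a chemokine made in epithelia, read 5.77, 5.66 and 5.72 log2 CPM with RA and 3.54, 3.41 and 3.39 with vehicle, and rose by 2.27 (SE 0.06, adjusted p = 2.5e-10). The others lie mostly in the CXC cluster of chromosome 5. In genome order, Ppbp (platelet basic protein; 90768518 to 90770063) read 0.92, 0.96 and 0.62 with RA and -0.11, 0.01 and -1.20 with vehicle, a rise of 1.27 (SE 0.29, adjusted p = 0.0203). Pf4 (platelet factor; 90772435 to 90773383) read 5.95, 5.74 and 5.42 with RA and 4.98, 4.79 and 4.65 with vehicle, a rise of 0.90 (SE 0.17, adjusted p = 0.00731). Cxcl3, a neutrophil attractant (90786101 to 90788093), read 2.55, 2.37 and 2.05 with RA and 1.03, 0.98 and 0.75 with vehicle, a rise of 1.40 (SE 0.17, adjusted p = 1.5e-04). Replicate 4 was the lowest of both groups for these 3 neighbours. Farther along lie Cxcl1 and Cxcl2, which also encode neutrophil attractants. Cxcl1 (90891245 to 90893121) read 1.77, 1.02 and 1.49 with RA and 0.98, 0.77 and 1.03 with vehicle, which overlap, and was not called (0.51, SE 0.25, adjusted p = 0.278). Cxcl2 (90903899 to 90905938) read 5.10, 5.06 and 4.99 with RA and 4.43, 4.51 and 4.49 with vehicle and rose by 0.57 (SE 0.11, adjusted p = 0.00865).

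Outside the cluster, and named after their values were seen, the monocyte chemokine genes Ccl6 (0.63, adjusted p = 0.00618) and Ccl2 (0.63, adjusted p = 0.0433) rose. The call of Ccl2 was lost without any 1 of the 6 libraries (adjusted p up to 0.154), with a pseudocount of 1 CPM and with no intensity trend. That of Ppbp was lost without vehicle library 4 or RA library 2 or 3 (adjusted p up to 0.078) and in the naive libraries alone. The decoy chemokine receptor gene Ccrl2 rose by 0.64 (SE 0.10, adjusted p = 0.0013), the only call among 11 tested chemokine receptors. Pf4 and Ppbp are also classic platelet genes: 11 of the 14 megakaryocyte and erythroid genes on the marker list were not in the table, and the third present was below the filter. Cxcl5 and Cxcl15 of the same cluster were not analysed here.

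**Figure D3:**
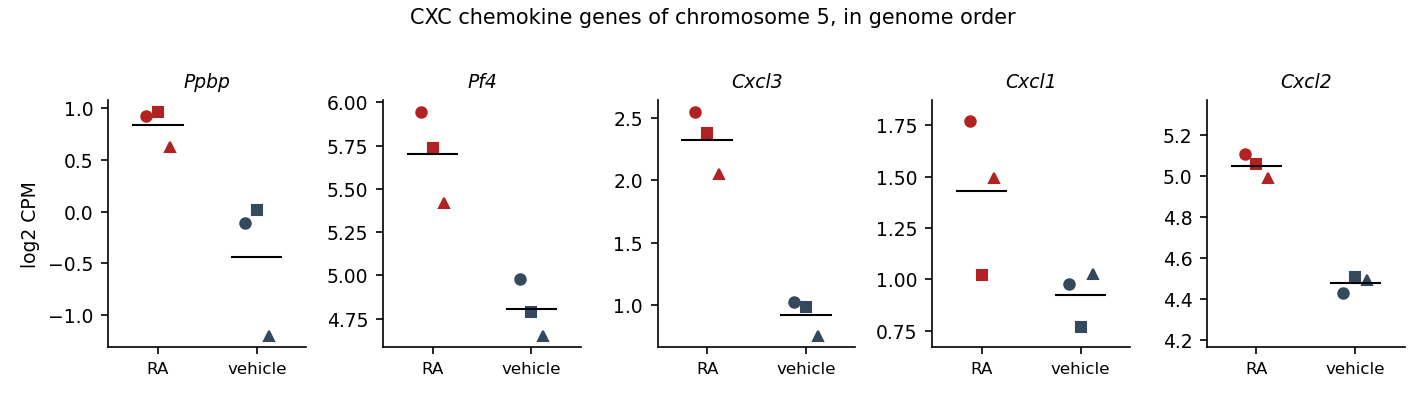
Level (log2 CPM, y axis, scaled per gene) of 5 CXC chemokine genes of chromosome 5 in genome order, with RA libraries in red on the left and vehicle libraries in dark blue on the right of each panel. Circles, squares and triangles are replicates 2, 3 and 4 and lines are group means; the groups overlap for Cxcl1 alone.

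Among secreted signals, Bmp2 changed most. Bmp2, a bone morphogenetic protein (Entrez 12156, chromosome 2, 133552159 to 133562896), read 5.75, 5.96 and 5.91 log2 CPM with RA and 2.70, 2.79 and 2.63 with vehicle. It rose by 3.17 (SE 0.10, adjusted p = 3.8e-10), 8.98-fold, from a level well above the floor. The receptor-activated transducer Smad3 read 5.31, 5.33 and 5.30 with RA and 4.17, 4.00 and 4.15 with vehicle and rose by 1.20 (SE 0.09, adjusted p = 3.2e-06). Ltbp3, which binds latent TGF-beta, rose by 0.63 (SE 0.08, adjusted p = 3.5e-04), and Smad1, the transducer used by BMP receptors, by 0.30 (adjusted p = 0.00173). The receptor genes that were called fell, namely the activin receptor gene Acvr2a by 0.46 (SE 0.08, adjusted p = 0.00226) and Tgfbr1 by 0.33 (SE 0.07, adjusted p = 0.0107). Tgfbi, a TGF-beta-induced matrix protein, read 8.71, 8.84 and 8.77 with RA and 9.19, 9.18 and 9.18 with vehicle and fell by 0.41 (SE 0.05, adjusted p = 3.5e-04). The inhibitor gene Skil fell by 0.16 (adjusted p = 0.0406). Of the 36 tested genes of this pathway 4 rose and 4 fell, with a median of -0.09. Tgfbr1 was not called without vehicle library 4 (adjusted p = 0.0526), and Skil was not called without any 1 of the 6 libraries (adjusted p up to 0.2) or under 2 other settings. Growth factors of vessels changed in opposite directions. Vegfa read 8.29, 8.58 and 8.66 with RA and 7.35, 8.03 and 7.63 with vehicle and rose by 0.84 (SE 0.15, adjusted p = 0.00324). Vegfc read 2.54, 2.09 and 2.04 with RA and 3.18, 2.77 and 3.10 with vehicle and fell by 0.79 (SE 0.16, adjusted p = 0.00935), a call lost without vehicle library 4 (adjusted p = 0.0505). Igf1 fell by 0.37 (SE 0.06, adjusted p = 0.00297), and these 3 were the calls among 23 growth and angiogenic factors.

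Of 25 tested Notch pathway genes, 7 rose and 1 fell, where 3.24% of all tested genes rose and 3.03% fell, and the median of 0.04 was close to 0. Dtx4, a Deltex ubiquitin ligase gene, read 7.91, 7.90 and 7.88 log2 CPM with RA and 6.83, 6.65 and 6.70 with vehicle (1.17, SE 0.05, adjusted p = 5.8e-09). Of the fringe glycosyltransferases, which set the ligand preference of Notch receptors, Mfng rose by 0.51 (SE 0.08, adjusted p = 0.00155) and Lfng by 0.49 (SE 0.05, adjusted p = 7.8e-05). Named after their values were seen, the coactivator gene Maml2 (0.37, adjusted p = 0.00121), the DNA-binding effector gene Rbpj (0.30, adjusted p = 3.1e-04) and Notch1 (0.30, adjusted p = 0.0432) rose as well, and the receptor-cleaving protease gene Adam10 rose by 0.29 (adjusted p = 5.7e-04). The Notch inhibitor gene Numb fell by 0.23 (adjusted p = 0.0375). Calls of 6 of the 7 increases held in each fit that left out 1 library. Notch1 was lost without vehicle library 3 or 4 or any 1 RA library (adjusted p up to 0.142), after median centring and with no intensity trend. Numb was lost without vehicle library 2 or 4 or RA library 3 or 4 (adjusted p up to 0.156) and under 3 other settings.

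Guidance molecules are known from axons and are also used by immune cells. Their list, which counts the antisense transcript Plxna4os1 as a member, gave 5 increases and 0 decreases among 26 tested. This is 19.2%, against 6.26% of all tested genes, and the median was -0.05. Plxna4, a semaphorin receptor, read 2.05, 1.93 and 1.69 log2 CPM with RA and 0.39, 0.20 and 0.71 with vehicle (1.46, SE 0.16, adjusted p = 7.8e-05). Plxna4os1, a transcript annotated antisense to it, read 3.46, 3.81 and 3.88 with RA and 1.30, 1.89 and 1.61 with vehicle (2.11, SE 0.14, adjusted p = 1.0e-06). If strand was not used in counting, reads of this pair could not be separated. Sema4c rose by 0.62 (adjusted p = 0.00337), and the netrin gene Ntn4 by 1.63 (adjusted p = 0.00975). Ntn4 is near the floor, with 1 vehicle library at the lowest value, and was not called with a pseudocount of 1 CPM or in the naive libraries alone. Sema4a rose by 0.39 (adjusted p = 0.0297), a call lost without vehicle library 2 or 4 or RA library 3 or 4 (adjusted p up to 0.12) and with no intensity trend.

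The RNA of the cyclooxygenase genes of prostaglandin synthesis changed in opposite directions. Ptgs1, the constitutive enzyme, read 6.64, 6.67 and 6.55 log2 CPM with RA and 4.90, 4.74 and 4.84 with vehicle and rose by 1.79 (SE 0.06, adjusted p = 6.2e-10), 3.46-fold. Ptgs2, the inducible enzyme, read 2.38, 2.53 and 2.41 with RA and 3.02, 3.17 and 3.25 with vehicle and fell by 0.71 (SE 0.15, adjusted p = 0.0104), a call lost without vehicle library 4 (adjusted p = 0.0566). The groups did not overlap for either gene. Thromboxane synthase, Tbxas1, rose by 0.67 (SE 0.05, adjusted p = 4.8e-06). Of the prostaglandin receptors, Ptger2 rose by 0.60 (SE 0.08, adjusted p = 3.2e-04) and Ptger3 fell by 0.70 (SE 0.17, adjusted p = 0.0302). The call of Ptger3, at about 1 CPM, was lost without vehicle library 2 or 3 or RA library 2 or 3 (adjusted p up to 0.103), with a pseudocount of 1 CPM and in the naive libraries alone. These 5 were the calls among 26 tested genes of eicosanoid synthesis and response.

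Of 44 tested genes that are switched on quickly by growth factors and stress, 8 fell and 2 rose, where 3.03% of all tested genes fell and 3.24% rose. The median was -0.11, and 4 decreases and 2 increases were called in every fit that left out 1 library. Dusp1, a phosphatase that turns off MAP kinases, read 5.38, 5.54 and 5.57 log2 CPM with RA and 6.04, 6.30 and 6.18 with vehicle (-0.68, SE 0.07, adjusted p = 6.2e-05). Fos, a subunit of the transcription factor AP-1, read 8.29, 8.22 and 8.35 with RA and 8.76, 8.75 and 8.84 with vehicle (-0.50, SE 0.08, adjusted p = 0.00127). Its partner Jun differed by -0.10 (adjusted p = 0.329) and Egr1 by 0.02 (adjusted p = 0.964). Named after their values were seen, the phosphatase gene Dusp4 fell by 0.33 (adjusted p = 0.00359) and the stress factor gene Atf3 by 0.21 (adjusted p = 0.0101). The increases were Ier3, an early response gene that protects from apoptosis (0.61, SE 0.06, adjusted p = 4.2e-05), and the growth arrest gene Gadd45a (0.56, SE 0.08, adjusted p = 0.00104). Of the rest, Dusp2 fell by 0.41, a call lost without vehicle library 3 or 4 or any 1 RA library (adjusted p up to 0.19) and under 2 other settings.

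Decreases were also seen in single genes of the nuclear envelope, intermediate filaments and caveolae. Syne3, which links the nuclear envelope to intermediate filaments (Entrez 212073, chromosome 12, 104929933 to 105010587), read 2.46, 2.13 and 2.21 log2 CPM with RA and 3.27, 2.89 and 3.30 with vehicle and fell by 0.89 (SE 0.14, adjusted p = 0.00153). Lmna, which encodes the A-type lamins, read 6.96, 6.73 and 6.75 with RA and 7.51, 7.30 and 7.42 with vehicle and fell by 0.60 (SE 0.08, adjusted p = 4.5e-04). The intermediate filament gene Vim read 9.68, 9.51 and 9.48 with RA and 10.17, 9.93 and 10.08 with vehicle and fell by 0.50 (SE 0.06, adjusted p = 2.6e-04). In all 3 genes replicate 2 was the highest RA library and replicate 3 the lowest vehicle library, and no RA library reached a vehicle library. Plec, the cytolinker plectin, named beside Vim and Lmna after its values were seen, fell by 0.53 (SE 0.12, adjusted p = 0.0182), a call lost without vehicle library 2 or 4 or RA library 3 or 4 (adjusted p up to 0.0846) and with no intensity trend. The caveolin genes fell together: Cav1 read 6.48, 6.30 and 6.42 with RA and 7.01, 6.97 and 7.10 with vehicle (-0.63, SE 0.06, adjusted p = 1.1e-05). Cav2, its neighbour, added after its values were seen, read 6.83, 6.84 and 6.84 with RA and 7.35, 7.33 and 7.39 with vehicle (-0.52, SE 0.05, adjusted p = 1.2e-05). Among 50 tested regulators of small GTPases and nuclear envelope linkers, 7 fell and 3 rose. The Rac activator gene Tiam1 fell by 0.66 (SE 0.07, adjusted p = 5.8e-05), while Rac2, the Rac GTPase of blood cells, rose by 0.41 (SE 0.04, adjusted p = 4.1e-05). Of 36 integrin and adhesion genes 5 fell and 1 rose. The hyaluronan receptor gene Cd44 fell by 0.36 (SE 0.04, adjusted p = 4.0e-05) and Alcam by 0.28 (adjusted p = 0.00113), whereas Ninj1, which ruptures the membranes of dying cells, rose by 0.35 (SE 0.07, adjusted p = 0.00638).

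Among inflammatory genes, changes were seen in single genes of several lists. Il1a, a cytokine gene, read 2.60, 2.80 and 2.84 log2 CPM with RA and 0.64, 1.60 and 1.20 with vehicle and rose by 1.60 (SE 0.19, adjusted p = 1.8e-04). Ikbke, an IkappaB kinase family gene, read 9.19, 9.21 and 9.20 with RA and 8.45, 8.52 and 8.52 with vehicle (0.71, SE 0.06, adjusted p = 4.8e-06). Its list of 50 NF-kappa B and Toll-like receptor genes held 5 increases and 2 decreases, and a median of -0.02. The restraining gene Tnip3 fell by 0.34 (adjusted p = 5.0e-04) and Irak2 rose by 0.33 (adjusted p = 7.8e-05). Among 46 cytokine receptor and JAK-STAT genes 3 rose and 5 fell. Socs2, a feedback inhibitor, rose by 1.17 (SE 0.11, adjusted p = 2.9e-05) and Il21r, the interleukin 21 receptor gene, by 0.72 (SE 0.07, adjusted p = 1.5e-05). All 5 decreases of that list, in Il12rb2, Il13ra1, Il17ra, Il7r and Jak2, were between -0.25 and -0.32 and each lost its call without at least 1 library. For Il17ra this was RA library 4 (adjusted p = 0.0556), for Il12rb2 vehicle library 2 or RA library 4 (up to 0.0783), for Il13ra1 vehicle library 2 or 3 or RA library 3 or 4 (up to 0.0594), and for Il7r and Jak2 any 1 of the 6 (up to 0.143). Il12rb2 and Jak2 were also lost in the naive libraries alone, and Il7r and Jak2 with no intensity trend. Of the ligands and receptors that set T cell responses, Icosl rose by 0.77 (SE 0.12, adjusted p = 0.00128), while Cd276 fell by 0.69 (SE 0.09, adjusted p = 5.1e-04) and Havcr2 by 0.63 (SE 0.10, adjusted p = 0.00132).

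Other groups held isolated changes. The list of cyclic AMP, adenosine and purine signalling had 4 increases and 5 decreases among 40 tested genes. The ATP-gated channel gene P2rx7 rose by 0.52 (SE 0.04, adjusted p = 2.8e-06). The cyclic nucleotide phosphodiesterase gene Pde2a, which shares 87.9% of its exonic bases with the gene model Gm45837, rose by 0.92 (SE 0.08, adjusted p = 9.5e-06). The adenosine receptor gene Adora2b fell by 0.68 (SE 0.09, adjusted p = 2.6e-04) and Entpd1, which breaks down extracellular ATP, by 0.31 (SE 0.05, adjusted p = 0.00135). Of 31 NRF2 target and iron genes, 6 rose and 2 fell, and the 6 increases held without any 1 library. The glutathione reductase gene Gsr rose by 0.67 (SE 0.05, adjusted p = 3.2e-06), the metallothionein gene Mt1 by 0.50 (SE 0.08, adjusted p = 0.00117) and Prdx6 by 0.40 (SE 0.05, adjusted p = 5.0e-04), while the cystine importer gene Slc7a11 fell by 0.60 (SE 0.08, adjusted p = 4.0e-04). Arg1, the arginase of alternatively activated macrophages, read -0.66, -0.30 and -0.25 log2 CPM with RA and -2.44, -1.98 and -2.55 with vehicle. It rose by 1.92 (SE 0.17, adjusted p = 9.7e-06) but stayed under 1 CPM, at a mean of 0.762 CPM with RA and 0.203 CPM with vehicle. The creatine synthesis gene Gatm, which also uses arginine, rose by 0.95 (SE 0.06, adjusted p = 9.3e-07). Of 31 tested genes of alternative activation 0 fell and 3 rose, namely Arg1, Socs2 and the beta-glucan receptor gene Clec7a (0.40, adjusted p = 0.0495). The call of Clec7a was lost without vehicle library 2 or 4 or RA library 3 or 4 (adjusted p up to 0.179) and under 3 other settings. Among the uncalled members, Retnla differed by -0.02 (adjusted p = 0.978), Chil3 by -0.19 (adjusted p = 0.791) and Mrc1 by -0.17 (adjusted p = 0.191). Chil3 stood at only 0.338 CPM with RA and 0.352 CPM with vehicle, so a lack of an RA effect is not shown for it. Arg1 and Chil3 were under 0 log2 CPM in every naive library and passed the filter through the IL4 libraries.

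Some lists held 0 or few calls. Of 53 interferon-stimulated genes and 32 antigen presentation genes, 0 were called, with medians of 0.07 and 0.10 and differences between -0.22 and 0.44 and between -0.15 and 0.35; 26 of the 32 antigen presentation genes had a positive difference. Without RA library 2, 1 interferon-stimulated gene was called. Of 25 sterol synthesis genes 1 rose and 1 fell, with a median of -0.12, and of 28 genes of PPAR response and fatty acid oxidation 1 fell; 0 of these calls held in all 6 fits that left out 1 library. The sterol count turned on 1 library, since 9 sterol genes fell and 0 rose without vehicle library 3. Of 32 macrophage identity genes, 3 rose and 2 fell. Irf8, a transcription factor of the monocyte lineage, rose by 0.31 (SE 0.05, adjusted p = 8.4e-04) and the scavenger receptor gene Msr1 fell by 0.23 (SE 0.04, adjusted p = 0.00485). The LXR targets Abca1 (0.18, adjusted p = 0.144) and Abcg1 (-0.02, adjusted p = 0.911), which export cholesterol, were not called.

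**Figure D4:**
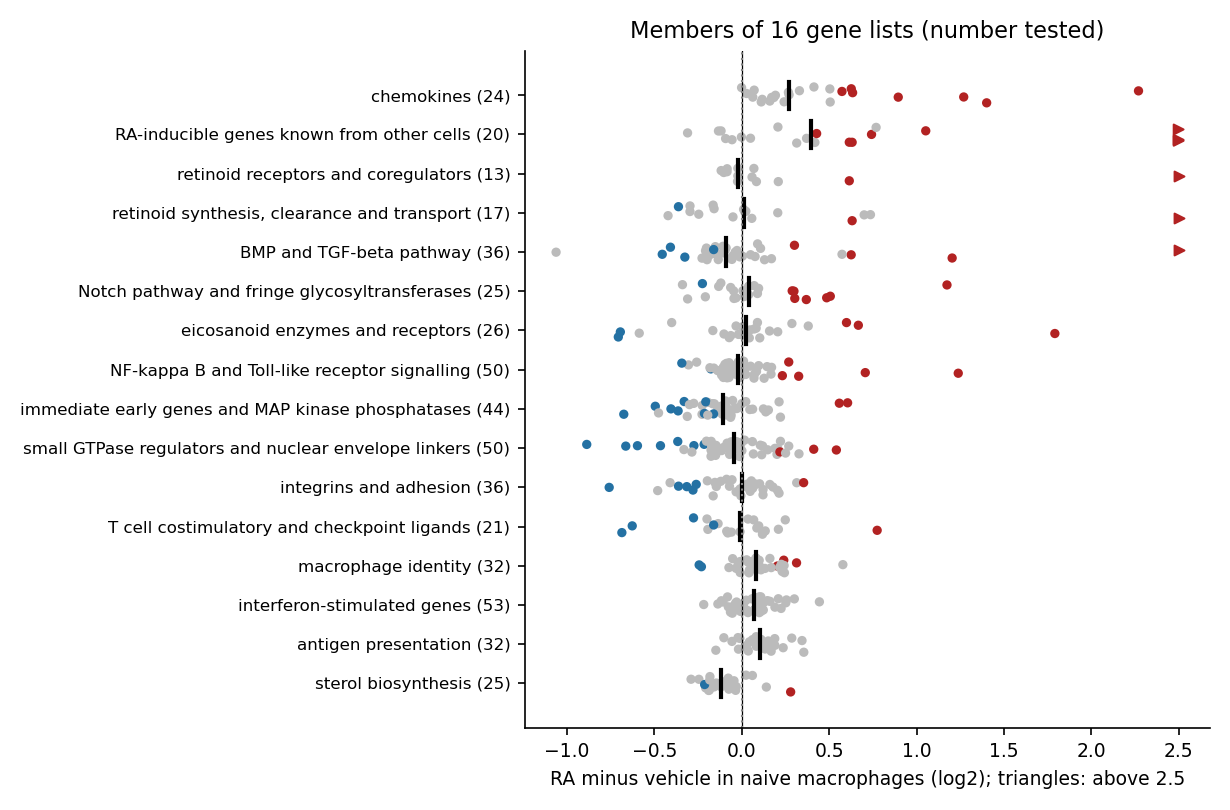
RA minus vehicle in naive macrophages (log2, x axis) for the tested members of 16 gene lists (1 per line, number tested in brackets), with members that rose in red, members that fell in blue and the rest in grey; black bars are list medians and triangles at the right edge are members beyond it. Chemokines lie to the right, with 23 of 24 positive, and the interferon and antigen presentation lists hold 0 coloured points.

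Ranked by the change in CPM, which is not divided by transcript length, the changes at the top were those of abundant transcripts. Apoe, a lipid carrier of macrophages, read 12.73, 12.79 and 12.80 log2 CPM with RA and 12.51, 12.63 and 12.36 with vehicle, a mean gain of 1182 CPM, but its difference of 0.27 (SE 0.07, adjusted p = 0.0497) was at the threshold. It was lost without any 1 library other than vehicle library 3 (adjusted p up to 0.235) and under 6 other settings. Gains that held without any 1 library were those of Tgm2 (460 CPM), the secretory kinase gene Fam20c (307 CPM; 0.64, adjusted p = 5.0e-05), the peroxiredoxin gene Prdx5 (267 CPM; 0.78, adjusted p = 1.5e-05) and the adaptor gene Sdcbp (235 CPM; 0.34, adjusted p = 7.8e-05). Of the exonic bases of Prdx5, 28.3% are shared with Trmt112 on the opposite strand, which differed by 0.17 (adjusted p = 0.141). The gains of Tpt1 (342 CPM; adjusted p up to 0.0771, without vehicle library 2 or 4 or RA library 2 or 4), the lysosomal lipase gene Lipa (295 CPM; up to 0.0578, without vehicle library 4 or RA library 3) and the cathepsin gene Ctsz (239 CPM; up to 0.152, without any 1 library other than vehicle library 3) did not hold, and for Tpt1 and Lipa quantile normalization also ended the call. Losses that held were those of Vim (-317 CPM), the annexin gene Anxa1 (-181 CPM; -0.33, adjusted p = 0.00287), the scaffold gene Ahnak (-167 CPM; -0.42, adjusted p = 3.2e-04), Tgfbi (-143 CPM) and BC005537 (-132 CPM; -0.29, adjusted p = 0.00107). The loss of the TNF receptor gene Tnfrsf1b (-199 CPM; up to 0.0959) was not called without RA library 2 or 4 or any 1 vehicle library. Those of the inhibitory receptor gene Lilrb4a (-169 CPM; up to 0.0744) and the protease gene Adam8 (-159 CPM; up to 0.0685) were not called without vehicle library 2 or 4 or RA library 3 or 4, and Adam8 was also lost in the naive libraries alone. Lilrb4a has a close paralog, so its reads may be split with it.

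Whether these RA effects were particular to naive cells was asked with the difference between the RA effect in IL4 cells and that in naive cells, written as IL4 minus naive, so that a positive value means a higher RA effect in IL4 cells. The comparisons share no library. In IL4 cells 11.7% of the tested genes were called. Of the 392 genes that rose in naive cells, 313 (79.8%) also rose in IL4 cells, where 6.5% of all tested genes rose, and 0 fell. They make up 39.7% of the 788 genes that rose in IL4 cells. Of the 367 genes that fell in naive cells, 203 (55.3%) also fell in IL4 cells, where 5.18% of all tested genes fell, and 2 rose. They make up 32.3% of the 628 genes that fell in IL4 cells. Most gene effects could not be told apart between the states: the difference itself was called for 46 genes (0.38%), 22 of which had been called in naive cells. The genes of this set were chosen by their value in naive cells, so only the test of the difference bears on it.

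The RA effect was smaller in naive cells for the following genes. Mfng rose by 0.51 in naive and 2.53 in IL4 cells (difference 2.03, SE 0.11, adjusted p = 1.9e-06). It read 3.18, 3.26 and 3.32 log2 CPM in naive RA and 2.69, 2.77 and 2.78 in naive vehicle libraries, and 4.40, 4.58 and 4.27 in IL4 RA and 1.89, 1.84 and 1.92 in IL4 vehicle libraries. Rai14, an actin-binding protein gene known as RA-induced, rose by 0.43 in naive and 1.49 in IL4 cells (difference 1.06, SE 0.09, adjusted p = 8.5e-05). Smad3 rose by 1.20 in naive and 2.09 in IL4 cells (difference 0.88, SE 0.13, adjusted p = 0.0109), but its level was higher in naive vehicle (4.17, 4.00 and 4.15) than in IL4 vehicle libraries (1.75, 1.92 and 2.01). Siglece, an inhibitory receptor that binds sialic acid, rose by 0.51 in naive and 1.55 in IL4 cells (difference 1.04, SE 0.16, adjusted p = 0.0182). Its rise in naive cells was not called without vehicle library 3 or 4 or RA library 2 or 4 (adjusted p up to 0.0696) or with no intensity trend. Its difference was lost without vehicle library 4, RA library 3 or IL4 vehicle library 3 (adjusted p up to 0.0878 over all alternatives).

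The RA effect was larger in naive cells for 3 named genes. Il21r rose by 0.72 in naive cells and differed by -0.03 in IL4 cells (difference -0.75, SE 0.09, adjusted p = 0.00336). It read 5.80, 6.04 and 5.88 log2 CPM in naive RA and 5.16, 5.27 and 5.13 in naive vehicle libraries, while all 6 IL4 libraries lay above these, between 7.56 and 7.78. Ptgs1 rose by 1.79 in naive and 1.28 in IL4 cells (difference -0.52, SE 0.08, adjusted p = 0.019), a call lost with no intensity trend and without any of 5 single libraries, which were naive vehicle 4, naive RA 3, IL4 vehicle 3, IL4 RA 2 and IL4 RA 3 (adjusted p up to 0.0846). Pde1c, a calcium-dependent phosphodiesterase gene, rose by 2.00 in naive and 0.51 in IL4 cells (difference -1.49, SE 0.28, adjusted p = 0.0368). Its naive vehicle values of -1.42, -2.09 and -1.21 are near the floor, and with a pseudocount of 1 CPM the difference shrank to -0.35 (adjusted p = 0.486). The difference of Pde1c was also lost in 10 of the 12 fits without 1 library, all but those without vehicle library 3 or 4. For Rarb (4.11 in naive, 3.45 in IL4 cells; adjusted p = 0.62), Camkk1 (4.10 and 3.47; 0.518), Bmp2 (3.17 and 2.76; 0.387) and Hic1 (3.14 and 4.40; 0.139) the difference was not called.

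**Figure D5:**
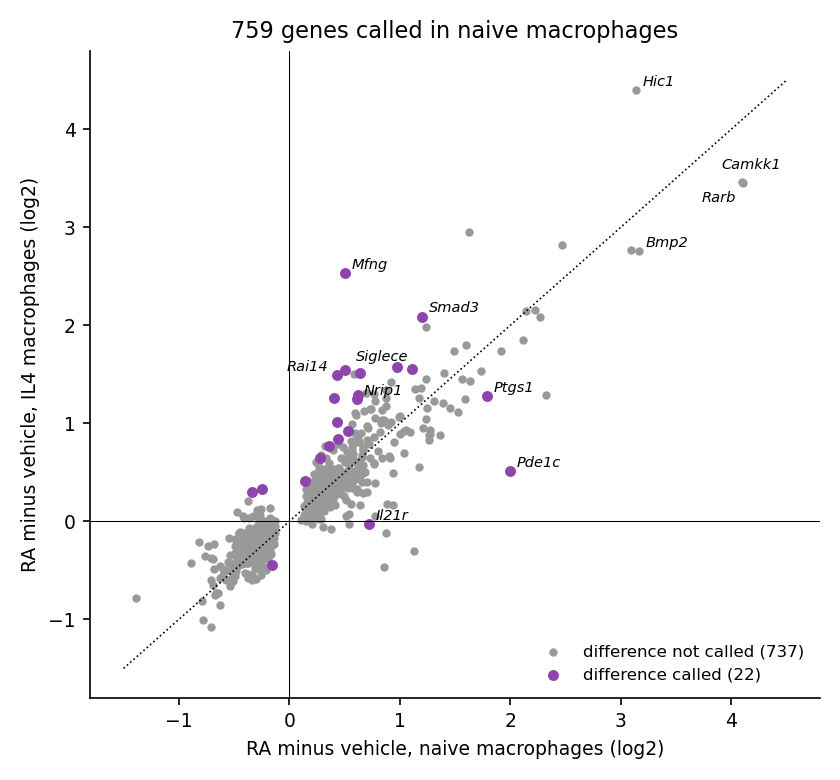
RA minus vehicle (log2) in naive macrophages (x axis) and in IL4 macrophages (y axis) for the 759 genes called in naive cells, 1 point per gene, with the 22 genes whose difference was called in purple and the dotted line marking equal effects. Mfng (0.51 and 2.53) lies farthest above the line among the called differences and Pde1c (2.00 and 0.51) farthest below it.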

How the data were processed

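RNA of mouse bone marrow-derived macrophages was measured by sequencing of poly(A)-selected libraries (stranded kit, 101 cycles from 1 end of the fragments, per the labels' protocols). The deposited table gives log2 CPM per gene scaled between libraries by TMM, as the authors' name for it says, and the submitters' processing notes name bcl2fastq 2.20, Salmon 0.13.1, edgeR 3.32.1 and the build GRCm38. The prior count behind the deposited log2 values is not given in the sources used here. Only 8.83 to 11.1% of low values were within 0.05 of a whole multiple of the smallest step, about what that tolerance gives for arbitrary values, so reads were not recovered and the depth is unknown. The table's CPM values summed to 950904 to 980010 in naive libraries, and replicates correlated across genes at 0.993 or more.

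Genes with at least 0 log2 CPM in at least 3 of 12 libraries were kept, and 1437 were removed. A model with 1 mean per group was fitted to all 12 libraries with limma 3.58.1 (R 4.3.3; empirical Bayes with an intensity trend, 8 residual degrees of freedom), and p-values were adjusted by Benjamini-Hochberg over all 12116 genes. RA was set against vehicle within naive cells, and the difference of the RA effects was tested as IL4 minus naive. Fold changes are on the log2 scale of the deposited values and understate or blur changes near the floor. On simulated data for the naive comparison (20 runs, 200 of 12116 genes changed), 76.1% of log2 changes of 0.5 and 91.5% of those of 1 were recovered, with 4.14% false calls. The simulated noise was normal and independent between genes and libraries, and fewer genes were changed than the 759 called. These rates are therefore not the error rates of the calls reported here.

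Genes were named by rule: the 14 largest increases and decreases without overlap, the 8 largest gains and losses in CPM, the 3 largest called changes of each list in each direction, and a set of known genes. Genes outside the rule were added after their values were seen. The members and lists were chosen with earlier results of these data known, and lists are described by counts without a set test. Promoters came from RefSeq (GRCm38.p6). Settings varied were the filter, the pseudocount, scaling, the libraries fitted, the trend, a replicate block and each library left out in turn. Reads of overlapping genes or paralogs may be split. Some genes are counted in the totals but not reported here.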

Additional observations from a re-analysis of the deposited data

Results flagged for a closer look

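For 14 named genes the effect of RA differed between IL4 and naive cells by the test of the difference itself (limma, Benjamini-Hochberg adjusted over 12116 genes, n = 3 libraries per group). Differences are IL4 minus naive on the log2 scale, and effects are RA minus vehicle. Of the 14, 4 were called under every alternative run and 10 lost the call in at least 1 fit that left out a library.

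The 4 that held were Mfng (naive 0.51, IL4 2.53, difference 2.03, adjusted p = 1.9e-06), Rai14 (naive 0.43, IL4 1.49, difference 1.06, adjusted p = 8.5e-05), Il21r (naive 0.72, IL4 -0.03, difference -0.75, adjusted p = 0.00336) and Smad3 (naive 1.20, IL4 2.09, difference 0.88, adjusted p = 0.0109). The highest adjusted p of these 4 over all alternatives was 0.0481, for Smad3.

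Among those that did not hold, Abcb1b, a drug efflux pump gene, and Inf2, a formin gene, fell in naive cells and rose in IL4 cells. Abcb1b had effects of -0.33 in naive and 0.30 in IL4 cells (difference 0.63, adjusted p = 0.0325, up to 0.146 over the alternatives), and Inf2 of -0.25 and 0.33 (difference 0.58, adjusted p = 0.0232, up to 0.102). Cebpe was not called in naive cells (0.21) and had an effect of 2.22 in IL4 cells (difference 2.01, adjusted p = 0.0325, up to 0.109). Its naive means were low, at -0.58 log2 CPM with RA and -0.79 with vehicle. It passed the filter through the IL4 RA libraries (1.79, 2.30 and 2.02), and the same values enter the test of its difference. The adhesion receptor gene Adgre5 had effects of 1.11 in naive and 1.56 in IL4 cells (difference 0.44, adjusted p = 0.0325, up to 0.141). Ltbp3 had effects of 0.63 in naive and 1.28 in IL4 cells (difference 0.66, adjusted p = 0.0325, up to 0.137). Nrip1 had effects of 0.62 in naive and 1.25 in IL4 cells (difference 0.63, adjusted p = 0.0289, up to 0.0878). Siglece had effects of 0.51 in naive and 1.55 in IL4 cells (difference 1.04, adjusted p = 0.0182, up to 0.0878). The inhibitory receptor gene Cd200r1 had effects of -0.16 in naive and -0.45 in IL4 cells (difference -0.29, adjusted p = 0.0251, up to 0.0846). Ptgs1 had effects of 1.79 in naive and 1.28 in IL4 cells (difference -0.52, adjusted p = 0.019, up to 0.0846). Pde1c had effects of 2.00 in naive and 0.51 in IL4 cells (difference -1.49, adjusted p = 0.0368, up to 0.486).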

How the results depend on the processing

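Of the 227 genes named or examined, 207 were called; 0 of these changed direction under any alternative, and 123 were called in each fit that left out 1 library. Of the 20 uncalled genes, 8 changed sign. Without 1 naive library the log2 difference ran from -0.0739 to 0.0661 for Abcg1, -0.0682 to 0.365 for Cebpe, -0.54 to 0.28 for Chil3, -0.0933 to 0.247 for Egr1, -0.064 to 0.021 for Rara, -0.30 to 0.31 for Retnla, -0.0556 to 0.0242 for Rxra and -0.0767 to 0.0222 for Top2b. With quantile normalization Egr1 stood at -0.0076. The total of 759 calls in naive cells ranged from 416 to 742 without 1 naive library, with 258 to 367 increases and 158 to 375 decreases, and 354 genes were called in all 6 such fits. Median centring gave 372 increases and 429 decreases (46.4% increases, against 51.6%), and with no intensity trend 599 genes were called (342 and 257). When the naive libraries were fitted alone, 778 genes were called (390 and 388), and 625 of these were among the 759. Replicate numbers are shared between groups. The deviations of same-numbered naive RA and vehicle libraries from their group means correlated at 0.510, 0.277 and 0.0706 for numbers 2, 3 and 4. Those of the IL4 libraries correlated at 0.245, 0.193 and 0.128. All of these values are positive. Whether equal numbers mark paired samples cannot be told from the labels and was not tested, and the main model had no replicate block. With the replicate block 987 genes in naive cells were called (475 and 512), and 755 of these were among the 759. For the difference between IL4 and naive cells, 46 genes were called (41 positive, 5 negative), against 15 (14 and 1) with no intensity trend, 78 (67 and 11) with the replicate block, 56 (49 and 7) with a pseudocount of 1 CPM, and 17 to 67 (16 to 50 and 1 to 17) without 1 library. The causes of these shifts were not tested. With 3 libraries per group and unknown depth, small changes near the threshold and changes of genes near the floor are the least certain.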
